A study of Hordeum vulgare with 12 samples.

Results

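The B- and C-class MADS-box genes of barley (Hordeum vulgare) were followed through 2 stages of inflorescence development in wild type (WT) and in a mutant. The set holds 5 of the 29014 gene identifiers in the deposited table. HORVU3Hr1G091000, HORVU1Hr1G063620 and HORVU7Hr1G091210 were taken as B class, and HORVU3Hr1G026650 and HORVU1Hr1G029220 as C class. Members were chosen by identifier, by a rule that names no measured value, though with earlier results of these data known. The table pairs no identifier with a gene name, and 0 of the 5 matched the RefSeq gene table used here, so the class of each gene rests on the list that chose it. No sequence is shown and no individual name or role within a class is given.

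B- and C-class genes encode MADS-domain transcription factors that act in combination to give floral organs their identity. B-class proteins work as obligate pairs of AP3-like and PI-like members and, with C-class proteins, specify stamens. In grasses the B-class genes also specify lodicules, the small organs that stand in the place of petals. C-class genes, alone or with other MADS proteins, specify carpels and help to end the activity of the floral meristem. In flowering plants in general both classes are switched on in young floral meristems, after the flower itself has been initiated, so their transcripts are used as signs of stamen and carpel formation.

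RNA was taken from whole inflorescences of the spring cultivar Golden Promise, and each of 12 samples pooled 15 to 20 spikes. The 4 groups of 3 samples crossed genotype (WT or mutant) with stage (W2.0 or W3.5). The series description gives the later stage as W3.0, and the sample labels were followed. If these are stages of the Waddington scale, W2.0 is the double ridge stage and W3.5 the stage at which stamen primordia appear. All plants were Golden Promise grown under what the labels call normal conditions. The labels speak only of a mutant and give no gene, while the series text speaks of FEA and its title of FASCIATED EAR genes. In maize, fasciated ear mutants have enlarged, flattened inflorescence meristems. The mutated gene could therefore not be checked in these data, and the number of mutant lines or alleles is not given in the sources used here. Likewise, the tissue label could not be checked against other named markers.

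The deposited table gives, for each gene and group, 1 mean over 3 libraries in FPKM, that is, reads scaled to the length of the gene and the sequencing depth. For low and moderately expressed genes these means still hold the whole reads of the single libraries. The depths behind them ran from 63298092 to 75896357 reads per library. Single libraries were recovered for 3 of the 5 members, namely HORVU3Hr1G091000, HORVU3Hr1G026650 and HORVU1Hr1G029220. HORVU1Hr1G063620 and HORVU7Hr1G091210 were too abundant to have a single solution and are described by the authors' means alone, with no SD, n or test. Libraries are called A, B and C by falling depth within a group, and which of them is which numbered replicate is unknown. In such whole-organ samples, fewer cells of a type and less RNA per cell cannot be told apart.

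One library stood apart and touches every comparison that uses WT at W2.0. Library A of that group held 67.5% of the summed FPKM of its 3 libraries for HORVU3Hr1G091000, 86.7% for HORVU3Hr1G026650 and 85.4% for HORVU1Hr1G029220. The main test results of these genes that rest on WT at W2.0 are therefore given with and without it. The authors' means, and the class sums, ratios and likenesses drawn from them, include it. For HORVU1Hr1G063620 and HORVU7Hr1G091210 the share of that library in the mean is unknown.

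In the authors' means, all 5 genes stood higher at W3.5 than at W2.0 in both genotypes, and at both stages all 5 stood lower in the mutant than in WT. At W2.0 the mutant means of both C-class genes and of HORVU7Hr1G091210 were under 1 FPKM. At W3.5 the WT means were 1.10-fold to 1.49-fold above the mutant means. These directions come from 4 means, and in single libraries not all of them held in every library. Many other genes shared some of these directions. Over the 19367 genes that reached 1 FPKM in any group, the median log2(FPKM + 1) difference between WT stages was 0.06. Between genotypes at the later stage it was -0.04, mutant minus WT. For mutant stages and for genotypes at the earlier stage the medians went the other way, at -0.02 and 0.02. At W3.5 the genotype difference of HORVU3Hr1G026650 was -0.13, above that of 36.2% of genes.

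**Figure D1:**
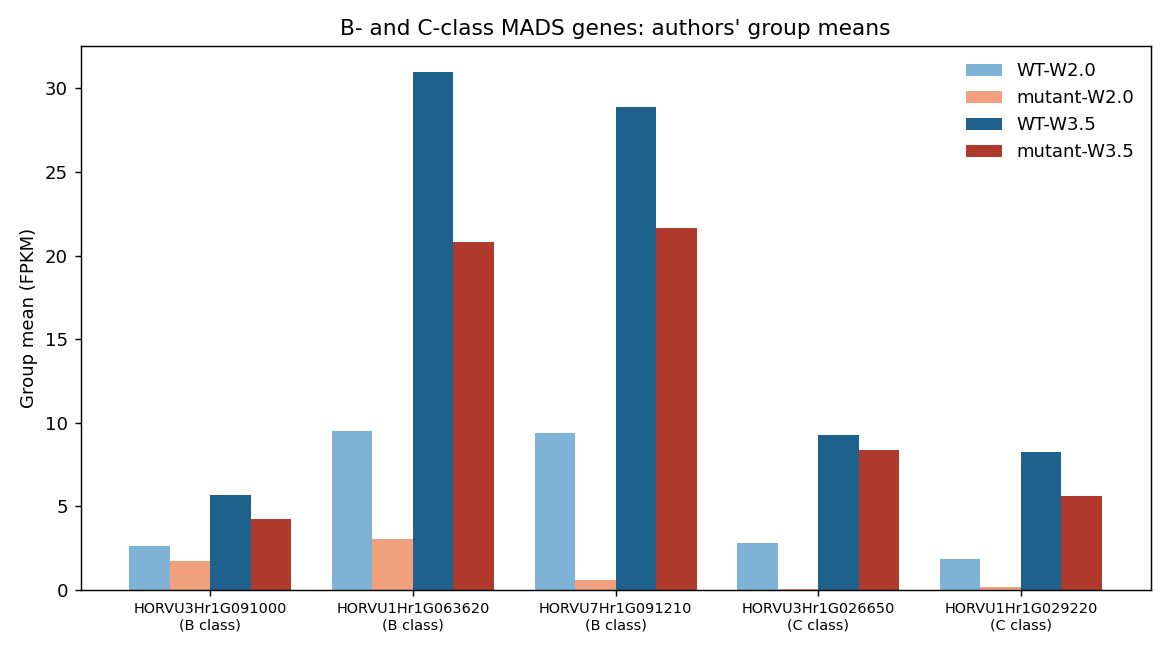
Authors' group means in FPKM (bars, linear axis from 0) of the 3 B-class and 2 C-class genes in WT and mutant at W2.0 and W3.5. HORVU1Hr1G063620 and HORVU7Hr1G091210 reach 31.0 and 28.9 FPKM in the WT W3.5 group. HORVU7Hr1G091210 and both C-class genes lie below 1 FPKM in the mutant W2.0 group; means of single groups carry no error bar because the table gives none.

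Among the B-class genes, HORVU1Hr1G063620 had the highest authors' mean in 3 of the 4 groups. Its means were 9.50 FPKM in WT W2.0, 31.0 in WT W3.5, 3.06 in mutant W2.0 and 20.8 in the mutant at W3.5. Its mean in WT at W3.5 was above that of 77.4% of the 19367 genes that reached 1 FPKM in any group, and its mean in the mutant at W2.0 was above that of 21.3%. It was thus a well expressed gene at the later stage and a low one in the mutant at the earlier stage.

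HORVU7Hr1G091210 tracked it closely in 3 groups. Its means were 9.36 FPKM for WT W2.0, 28.9 for WT W3.5 and 21.7 for mutant W3.5, which is 0.99, 0.93 and 1.04 times those of HORVU1Hr1G063620. In the mutant at W2.0 its mean was 0.608 FPKM, and the ratio fell to 0.199. The 2 most abundant B-class genes were thus near 1 to 1 in 3 groups and apart in the fourth.

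HORVU3Hr1G091000, the least abundant of the B-class genes in 3 of the groups, moved least. Its WT libraries A, B and C gave 5.34, 1.31 and 1.26 FPKM at W2.0 (382, 91 and 79 reads). At W3.5 the WT libraries gave 4.69, 5.98 and 6.29 FPKM. The mutant libraries gave 2.25, 1.68 and 1.21 FPKM at W2.0 and 2.51, 5.17 and 5.10 FPKM at W3.5. In WT at W2.0 library A sat inside the range of the WT W3.5 libraries, while B and C sat inside the range of the mutant at W2.0. Group means were 2.64 ± 2.34 FPKM in WT W2.0, 5.65 ± 0.849 in WT W3.5, 1.71 ± 0.524 in mutant W2.0 and 4.26 ± 1.51 in mutant W3.5 (SD, n = 3 each). Its transcript was present in every library, at no fewer than 76 reads.

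The C-class gene HORVU3Hr1G026650 ranged from 0 to 13.2 FPKM over the 12 libraries. In the mutant at W2.0, libraries A and C held 0 reads and B held 10 reads, or 0.172 FPKM with an exact 95% Poisson interval of 0.0825 to 0.316. The limit that 3 reads set was 0.0505 FPKM in library A and 0.0576 in library C. In WT at W2.0 libraries A, B and C gave 7.25, 0.489 and 0.620 FPKM, from 428, 28 and 32 reads. All 3 WT libraries were above all 3 mutant libraries at this stage, and the interval of WT library B began at 0.325 FPKM. Such intervals and limits cover counting error alone.

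At W3.5 the same gene gave 9.15, 5.44 and 13.2 FPKM in WT libraries A, B and C and 5.01, 8.86 and 11.3 FPKM in the mutant libraries. The 2 genotypes overlapped almost fully. Means were 9.26 ± 3.88 FPKM in WT and 8.38 ± 3.16 in the mutant, against 2.79 ± 3.86 in WT and 0.0573 ± 0.0993 in mutant W2.0 (SD, n = 3 each).

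HORVU1Hr1G029220, the other C-class gene, gave 4.66, 0 and 0.793 FPKM in WT libraries A, B and C at W2.0, from 302, 0 and 45 reads. The limit of 3 reads in library B was 0.0477 FPKM. The mutant libraries at W2.0 gave 0.0766, 0.141 and 0.245 FPKM, from 5, 9 and 14 reads. WT library B was thus below every mutant library, and the 2 genotypes overlapped. At W3.5 the WT libraries gave 7.81, 7.30 and 9.57 FPKM and the mutant libraries 1.26, 8.83 and 6.72 FPKM. Mutant library B sat inside the WT range, C just below it and A far below it. Means at W3.5 were 8.23 ± 1.19 FPKM in WT and 5.61 ± 3.91 in the mutant, and at W2.0 they were 1.82 ± 2.49 and 0.154 ± 0.0849 (SD, n = 3 each).

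**Figure D2:**
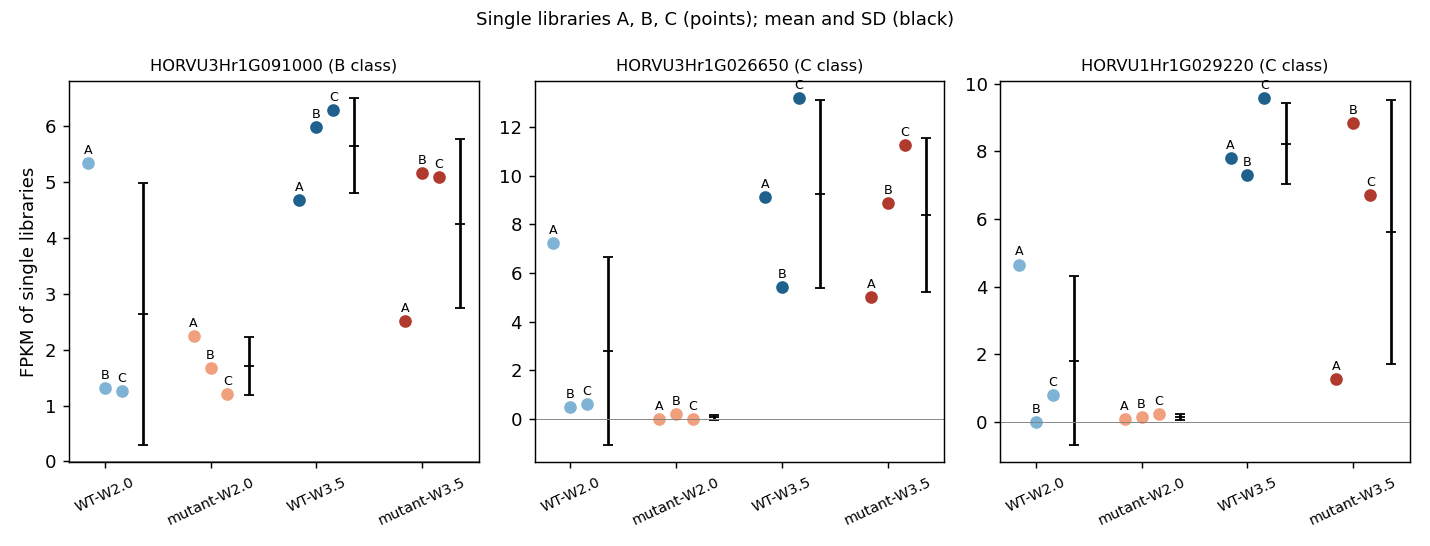
FPKM of single libraries A, B and C (coloured points, linear axes that differ between panels) in WT and mutant at W2.0 and W3.5, with the group mean and SD in black (n = 3 each), for the 3 genes whose reads were recovered. In all 3 panels library A of WT at W2.0 lies far above B and C, and library A of the mutant at W3.5 is the lowest of its group.

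Development from W2.0 to W3.5 in WT was the first comparison. The authors' means were higher at W3.5 by 2.14-fold for HORVU3Hr1G091000, 3.26-fold for HORVU1Hr1G063620 and 3.08-fold for HORVU7Hr1G091210 among the B-class genes. The C-class ratios were 3.32 for HORVU3Hr1G026650 and 4.53 for HORVU1Hr1G029220. On the log2(FPKM + 1) scale, 4 of the 5 members were at least 2-fold higher at W3.5, against 1.08% of the 19367 genes, and HORVU3Hr1G091000 at 0.87 was the exception. The median difference of the 5 members was 1.53 and that of all genes 0.06.

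In single libraries that difference did not pass the test. With limma on log2(FPKM + 1) over 4545 genes and Benjamini-Hochberg adjustment, HORVU3Hr1G091000 was 1.04 ± 0.36 (SE) higher at W3.5, with an adjusted p of 0.190. HORVU3Hr1G026650 was 1.85 ± 0.54 higher (adjusted p = 0.132) and HORVU1Hr1G029220 2.08 ± 0.58 higher (adjusted p = 0.108). None of the 3 was called, where 1.01% of tested genes were called in either direction and 0.11% as higher. The median of all tested genes was itself 0.11 higher at W3.5 on this scale, and with RLE scaling, which removes that shift, the 3 differences were 0.92, 1.73 and 1.98. Only for HORVU1Hr1G029220 did every W3.5 library exceed every W2.0 library, as was so for 17.2% of the tested genes. Both C-class genes passed the filter of 1 FPKM in 3 or more libraries through W3.5 libraries. Their stage tests and the shares beside them are therefore not free of that selection.

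Without library A of WT at W2.0, all 3 genes rose and passed the test. The mean of libraries B and C was 1.29 FPKM for HORVU3Hr1G091000, 0.554 for HORVU3Hr1G026650 and 0.397 for HORVU1Hr1G029220, so that the WT W3.5 means were 4.39-fold, 16.7-fold and 20.7-fold higher. The limma differences became 1.53 ± 0.27 (adjusted p = 0.0151), 2.65 ± 0.34 (adjusted p = 0.00407) and 2.78 ± 0.49 (adjusted p = 0.0155). In that fit 0.396% of tested genes were called as higher. Every W3.5 library then exceeded both remaining W2.0 libraries in all 3 genes, as in 25.6% of tested genes. The selection of the C-class genes through W3.5 libraries applies here too. The library is singled out by these genes' own values, so the calls without it describe the other libraries and are not independent support for a rise. Over the 17 alternative settings tried, this was the only one in which any of the 3 genes was called in the WT comparison.

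The stage difference in the mutant was larger in the authors' means, and its size did not involve WT libraries. Means were 2.49-fold higher at W3.5 for HORVU3Hr1G091000, 6.80-fold for HORVU1Hr1G063620 and 35.6-fold for HORVU7Hr1G091210. For the C-class genes the ratio was 146 for HORVU3Hr1G026650, over a mean that rests on 10 reads, and 36.4 for HORVU1Hr1G029220. On the log2(FPKM + 1) scale 4 of the 5 members were at least 2-fold higher, against 0.733% of all genes. HORVU3Hr1G091000 was at 0.96 on that scale, just under 1. Of the 19367 genes, 4 had a larger log2(FPKM + 1) difference than HORVU7Hr1G091210, 7 than HORVU3Hr1G026650, 10 than HORVU1Hr1G029220 and 12 than HORVU1Hr1G063620.

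Every mutant library at W3.5 exceeded every mutant library at W2.0 in all 3 recovered members, as it did in 5.65% of tested genes. Both C-class genes were under 1 FPKM in every mutant W2.0 library. They passed the filter of 1 FPKM in 3 or more libraries through W3.5 libraries, which favours this order. Their stage tests and the shares beside them are not free of that selection. The limma differences were 0.93 ± 0.36 for HORVU3Hr1G091000 (adjusted p = 0.467), 3.09 ± 0.54 for HORVU3Hr1G026650 (adjusted p = 0.0854) and 2.27 ± 0.58 for HORVU1Hr1G029220 (adjusted p = 0.264). None passed, in a comparison in which 0.022% of tested genes did. HORVU3Hr1G026650 was called in 2 of the 17 alternative settings. At a pseudocount of 0.1 it rose by 5.85 with an adjusted p of 0.0297. When library A of WT at W2.0 was left out, it rose by 3.09 with an adjusted p of 0.00157. In that fit 0.11% of tested genes were called. The size was that of the main test, and only the SE, which pools the spread of all groups, fell from 0.54 to 0.30. That library is singled out by this gene's own values, so the call without it is not independent support for a rise. The unadjusted p of the main test was 7.52e-05.

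Mutant and WT were then compared at W2.0. The authors' means were higher in WT by 1.54-fold for HORVU3Hr1G091000, 3.11-fold for HORVU1Hr1G063620, 15.4-fold for HORVU7Hr1G091210, 48.6-fold for HORVU3Hr1G026650 and 11.8-fold for HORVU1Hr1G029220. At least 2-fold lower in the mutant were 4 of the 5 members, against 1.9% of all genes, the exception being HORVU3Hr1G091000 at -0.42 on the log2(FPKM + 1) scale. On that scale the means of HORVU3Hr1G026650 differed by -1.84 and those of HORVU1Hr1G029220 by -1.29.

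In single libraries none of these differences passed the test. The limma differences, mutant minus WT, were -0.26 ± 0.36 for HORVU3Hr1G091000 (adjusted p = 0.857), -1.36 ± 0.54 for HORVU3Hr1G026650 (adjusted p = 0.392) and -0.91 ± 0.58 for HORVU1Hr1G029220 (adjusted p = 0.615). None was called, where 1.23% of tested genes were. Only HORVU3Hr1G026650 had every mutant library below every WT library, as had 5.41% of tested genes.

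Without library A these differences were smaller on this scale or turned. HORVU3Hr1G091000 turned to 0.23 ± 0.27 higher in the mutant (adjusted p = 0.807). HORVU3Hr1G026650 stood at -0.56 ± 0.34 (adjusted p = 0.598) and HORVU1Hr1G029220 at -0.22 ± 0.49 (adjusted p = 0.913). In that fit 0.968% of tested genes were called. The 95% intervals ran from -0.36 to 0.81, from -1.30 to 0.18 and from -1.29 to 0.86. C-class levels 2-fold lower in the mutant lie inside them, but at such low levels this scale does not bound the fold change. On the linear scale the mean of WT libraries B and C was 0.753 times the mutant mean for HORVU3Hr1G091000, 9.67 times for HORVU3Hr1G026650 and 2.57 times for HORVU1Hr1G029220. The pseudocount of 1 compresses such low values, and at a pseudocount of 0.1 with all libraries the difference of HORVU3Hr1G026650 was -3.39 ± 0.79, with an adjusted p of 0.0760. With limma-voom it was -5.80 ± 3.27 (adjusted p = 0.582).

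At W3.5 the members of the 2 genotypes lay closer together than at W2.0 in the authors' means, which include library A of WT at W2.0. Without that library, the limma differences at W2.0 and W3.5 were 0.23 and -0.38 for HORVU3Hr1G091000. They were -0.22 and -0.72 for HORVU1Hr1G029220, so both genes were closer at W2.0. For HORVU3Hr1G026650 they were -0.56 and -0.12, closer at W3.5. In the authors' means WT was higher by 1.33-fold for HORVU3Hr1G091000, 1.49-fold for HORVU1Hr1G063620, 1.33-fold for HORVU7Hr1G091210, 1.10-fold for HORVU3Hr1G026650 and 1.47-fold for HORVU1Hr1G029220. Of the 5 members 0 were 2-fold lower in the mutant, where 0.805% of all genes were. The median difference of the members was -0.40 and that of all genes -0.04 on the log2(FPKM + 1) scale.

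In the limma fit the W3.5 differences were -0.38 ± 0.36 for HORVU3Hr1G091000 (adjusted p = 0.75), -0.12 ± 0.54 for HORVU3Hr1G026650 (adjusted p = 0.970) and -0.72 ± 0.58 for HORVU1Hr1G029220 (adjusted p = 0.685). The genotypes overlapped in all 3, while 11.9% of tested genes had every mutant library below every WT library. None of the 3 was called, against 1.32% of tested genes. The 95% intervals ran from -1.16 to 0.40, from -1.28 to 1.05 and from -1.97 to 0.52, so that a mutant level 2-fold lower lies inside all 3. Library A of the mutant at W3.5 was the lowest of its group in all 3 genes. Without it they were -0.11 ± 0.38 for HORVU3Hr1G091000 (adjusted p = 0.966), 0.17 ± 0.60 for HORVU3Hr1G026650 (adjusted p = 0.966) and -0.07 ± 0.52 for HORVU1Hr1G029220 (adjusted p = 0.983). Leaving out the lowest library must move the differences upward, so these values only describe the other libraries. Without WT library C instead, HORVU3Hr1G026650 also turned, to 0.15 ± 0.60.

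**Figure D3:**
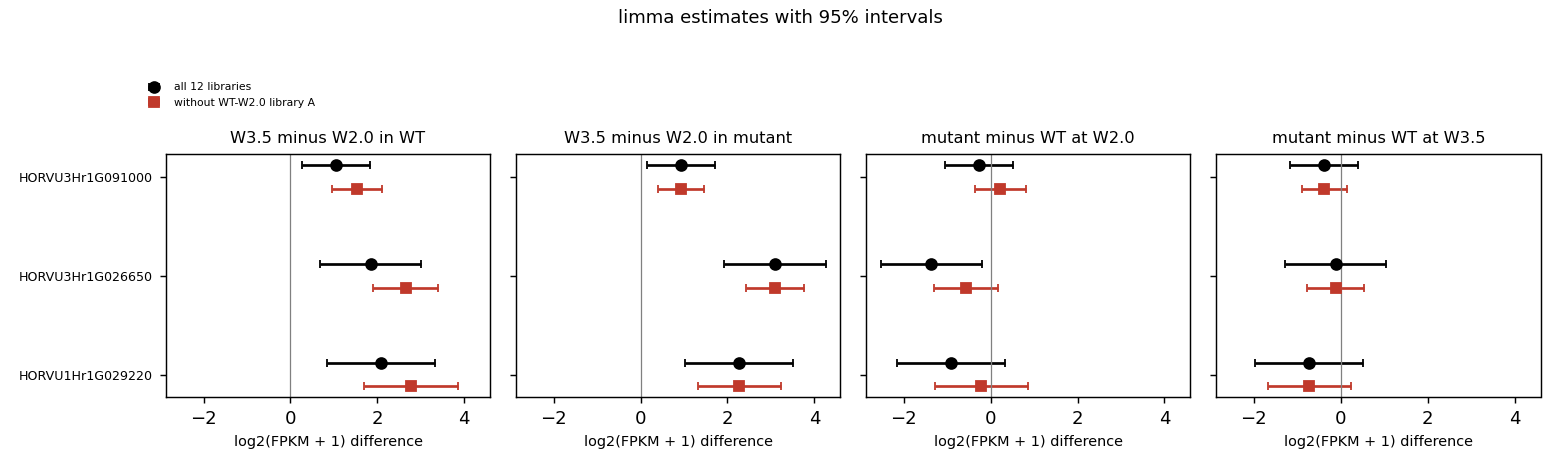
Differences on the log2(FPKM + 1) scale from limma, with 95% intervals, for the 3 genes with recovered reads in 4 comparisons, using all 12 libraries (black circles) and leaving out library A of WT at W2.0 (red squares). Without that library the WT stage differences move to 1.53, 2.65 and 2.78, while the genotype differences at W2.0 move towards 0 or past it.

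Whether the stage difference itself differed between genotypes was tested as an interaction. The values were -0.11 ± 0.51 for HORVU3Hr1G091000 (adjusted p = 0.970), 1.25 ± 0.76 for HORVU3Hr1G026650 (adjusted p = 0.722) and 0.19 ± 0.81 for HORVU1Hr1G029220 (adjusted p = 0.970). Of the 4545 tested genes 0 were called by limma, 335 had an unadjusted p under 0.05, and limma-voom also called 0. Without library A of WT at W2.0 the 3 values were -0.60 ± 0.36 (adjusted p = 0.683), 0.44 ± 0.45 (adjusted p = 0.809) and -0.51 ± 0.66 (adjusted p = 0.849), and again 0 genes were called, with 327 at an unadjusted p under 0.05. The value of HORVU3Hr1G026650 depended on how low levels were treated. It was 3.26 ± 1.12 at a pseudocount of 0.1 (adjusted p = 0.674) and 5.65 ± 3.30 with limma-voom (adjusted p = 0.779). For the untested HORVU7Hr1G091210 and HORVU1Hr1G063620 the authors' means gave 2.29 and 0.82.

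Library A of WT at W2.0 was set against B and C of its group in all tested genes. On the log2(FPKM + 1) scale it was above the mean of B and C by 1.47 in HORVU3Hr1G091000, 2.41 in HORVU3Hr1G026650 and 2.02 in HORVU1Hr1G029220. Over all 4545 genes the median was -0.03, and 40 genes, or 0.880%, were at least 1 higher in A. The 3 members were thus above 99.8%, 99.9% and 99.8% of the tested genes in this difference. In FPKM, library A was 4.15-fold, 13.1-fold and 11.7-fold above the mean of B and C, and the WT W3.5 means were 1.06-fold, 1.28-fold and 1.77-fold above library A.

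The place of each library among the other genes was taken from principal component 1 of the 4542 tested genes outside the set, which held 23.6% of the variance. WT libraries A, B and C at W2.0 lay at 0.51, -25.1 and -12.5, and the 3 WT libraries at W3.5 between 10.9 and 22.6. The mutant libraries lay between -12.2 and -5.12 at W2.0 and between -3.85 and 11.5 at W3.5. Library A of WT at W2.0 thus lay between the other W2.0 libraries and the WT W3.5 libraries. What set this library apart was not tested.

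**Figure D4:**
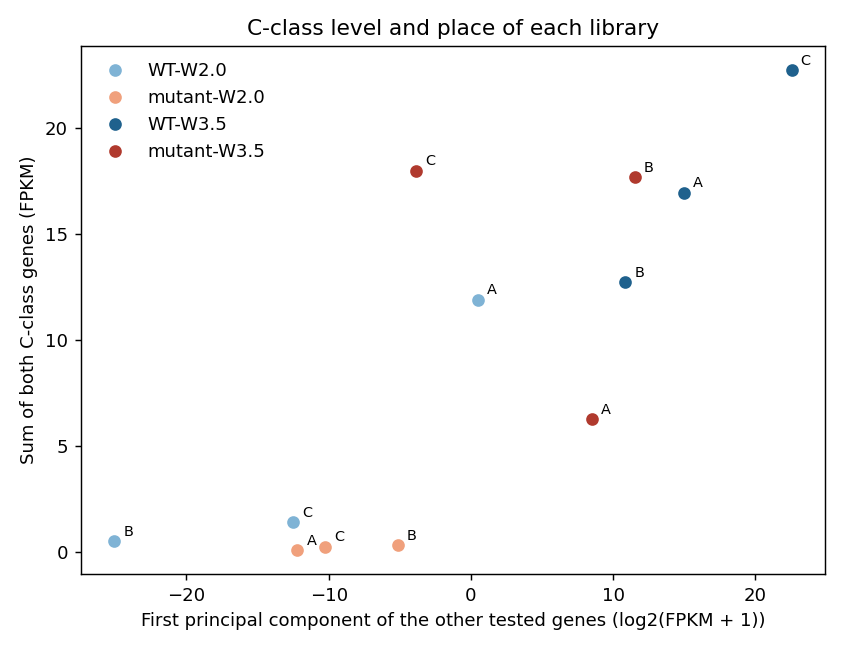
Sum of both C-class genes in FPKM (vertical axis) against principal component 1 of the 4542 other tested genes (horizontal axis, log2(FPKM + 1) units) for the 12 libraries, lettered within each group. Library A of WT at W2.0 has a C-class sum of 11.9 FPKM, against 0.489 and 1.41 for B and C of its group and 12.7 to 22.8 for WT at W3.5.

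A second library moved with the members. Library A of the mutant at W3.5 was the lowest of its group in all 3 recovered genes. Its difference from the mean of B and C was -0.80 in HORVU3Hr1G091000, -0.88 in HORVU3Hr1G026650 and -1.96 in HORVU1Hr1G029220 on the log2(FPKM + 1) scale. At least 1 lower in A were 2.27% of tested genes, and the median was -0.05. On the first component of the other genes, libraries A, B and C of this group lay at 8.53, 11.5 and -3.85. Their C-class sums were 6.27, 17.7 and 18 FPKM in the same order. The place on that component thus did not follow the C-class level within this group. The genotype differences at W3.5 without it are given above, and what set it apart was not tested.

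The balance within and between the classes was compared per length. The summed authors' means of the 3 B-class genes were 21.5 FPKM in WT W2.0, 65.5 in WT W3.5, 5.38 in mutant W2.0 and 46.7 in the mutant at W3.5. The summed means of the C-class genes were 4.6, 17.5, 0.211 and 14 FPKM in the same order. The WT W2.0 sums include library A, which held 86.7% of the summed FPKM for HORVU3Hr1G026650 and 85.4% for HORVU1Hr1G029220. The B-class sum was 4.67 times the C-class sum in WT W2.0 and 3.75 times in WT W3.5, whereas the mutant ratio was 25.4 at the earlier and 3.34 at the later stage. The ratio of 25.4 divides by a C-class sum of 0.211 FPKM, to which mutant W2.0 libraries A and C gave 0 reads of HORVU3Hr1G026650. No spread can be given for these ratios.

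The recovered genes allow the same view in single libraries. The C-class sum was 0.0766, 0.313 and 0.245 FPKM in mutant libraries A, B and C at W2.0 and 6.27, 17.7 and 18 FPKM at W3.5. Divided by HORVU3Hr1G091000, the C-class sum was 2.13 to 3.62 in the WT libraries at W3.5 and 2.5 to 3.53 in the mutant libraries at W3.5. At W2.0 it was 0.034 to 0.203 in the mutant and 2.23, 0.373 and 1.12 in WT libraries A, B and C. The C-class sum was thus above HORVU3Hr1G091000, the least abundant B-class gene in 3 of the 4 group means, in every W3.5 library and in WT libraries A and C at W2.0. It was below that gene in WT library B and in every mutant library at W2.0.

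HORVU3Hr1G026650 and HORVU1Hr1G029220 were of like abundance in WT at W3.5. Their ratio in FPKM ran from 0.745 to 1.38 over those libraries, so neither was the more abundant throughout. In the mutant at W3.5 the ratio was 3.96, 1.00 and 1.68 in libraries A, B and C. HORVU3Hr1G026650 was thus the higher in A and C, and the 2 were near equal in B.

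Genes with the most similar pattern were found over the 4 authors' means, by the root mean square difference of log2(FPKM + 1) after each gene's own mean was subtracted. With 4 points many genes can look alike, and the measure says nothing of function. The WT W2.0 means used for it include library A. For HORVU1Hr1G063620 the closest of all genes was the C-class HORVU1Hr1G029220, at 0.063, followed by HORVU1Hr1G045760 at 0.15. In return HORVU1Hr1G063620 was the closest to HORVU1Hr1G029220, followed by HORVU4Hr1G067680 at 0.19. Both genes nearest to HORVU3Hr1G026650 were members too, HORVU1Hr1G029220 at 0.25 and HORVU1Hr1G063620 at 0.26. The nearest gene was thus another member in 3 of 5 cases, and for HORVU3Hr1G026650 it was the other C-class gene.

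The other 2 members were nearest to genes outside the set. HORVU7Hr1G091210 was closest to HORVU7Hr1G054220 at 0.078 and HORVU5Hr1G076400 at 0.11. HORVU7Hr1G054220 was listed at 5.62 FPKM in WT W2.0, 20.2 in WT W3.5, 0 in mutant W2.0 and 13.2 in the mutant at W3.5. HORVU5Hr1G076400 was at 6.63, 22.8, 0.0292 and 15.5 FPKM in the same order. All 3 genes had their lowest mean in the mutant at W2.0, where HORVU7Hr1G091210, at 0.608 FPKM, was the highest of them. The member most like HORVU7Hr1G091210 was HORVU3Hr1G026650, at rank 4. HORVU3Hr1G091000 was closest to HORVU5Hr1G097290 at 0.046 and HORVU2Hr1G048950 at 0.055. In likeness to HORVU3Hr1G091000 the other members ranked from 16109 to 18961 among the 19367 genes, so it did not share their pattern by this measure. None of these genes outside the set is named in the sources used here.

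The nearest expressed genes on either side of each member were taken in identifier order. Of these 10 genes 9 were under 1 in size on the log2(FPKM + 1) scale in all 4 comparisons of the authors' means. The exception was HORVU3Hr1G026670, beside HORVU3Hr1G026650, which was 1.27 higher in the mutant at W2.0, at 1.46 FPKM against 0.0148 in WT. The member HORVU3Hr1G091000 was also under 1 in all 4, at most 0.96. Of all genes, 0.733% to 1.9% passed this limit in a single comparison and direction, as given above. No share over all 4 comparisons and both directions was taken. The count of neighbours is therefore not compared with other genes.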

How the data were processed

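The authors' deposited values are FPKM averaged over the 3 libraries of each group, and this unit was inferred from the values, as nothing else gives it. Per the submitters' processing notes, the tools were FastQC, HISAT2 2.0.0 and HTSeq 0.11.2. Neither a genome build nor an annotation or a rule for multiply matching reads is given in the sources used here. Members may therefore share reads with near-identical copies. The TruSeq kit named in the labels' protocols does not mark strand. The rule that chose the members uses identifiers alone, but members and lists were chosen with earlier results of these data known.

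Each mean is a sum of 3 whole read numbers over library depths, divided by a whole gene length from 150 to 10000 bases. The 12 depths were solved from low values, and reads were accepted where 1 joint solution held a probability above 0.99, which gave 7071 genes. Recovery fell with level, from 88.3% of genes with a highest mean of 1 to 2 FPKM to 9.03% at 8 to 16 FPKM. The members' solutions had lengths of 948, 783 and 860 bases and probabilities of at least 0.999. Recovered libraries were treated as the replicates of the labels, which call them biological.

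limma 3.58.1 (R 4.3.3, trend) tested log2(FPKM + 1) in 1 model of 4 group means for the 4545 genes that reached 1 FPKM in 3 or more libraries, at a Benjamini-Hochberg adjusted p under 0.05. All 3 recovered members passed this filter, and the other 2 members were not tested. At W2.0 both C-class genes reached 1 FPKM only in WT library A, so they passed through the W3.5 libraries. Their stage tests, and the shares of tested genes set beside them, are not free of that selection. The authors' means were compared over the 19367 genes that reached 1 FPKM in any group. Fold changes on this scale understate those of low genes. Both steps were tested on simulated data, with python 3.11.15, numpy 2.4.6 and numba 0.67.0. Alternatives were a pseudocount of 0.1, no filter, RLE and upper-quartile scaling, limma-voom, a 1.5-fold limit and leaving out each library.

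Named genes were the 5 members, the 2 genes most like each over the 4 means, and the nearest expressed gene on either side. A planned list of other floral MADS-box genes was not used, since no table used here annotates its identifiers.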

Additional observations from a re-analysis of the deposited data

How the results depend on the processing

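No paired analysis was possible because the deposited columns hold group means and carry no replicate number. Over 17 alternatives, 238 limma differences of the 3 recovered members kept direction and call, and the 5 that became calls are given above. Sizes moved more, since low values are compressed by the pseudocount of 1. With limma-voom HORVU3Hr1G026650 went from -1.36 to -5.80 between genotypes at W2.0 and from 3.09 to 8.31 between mutant stages, and HORVU1Hr1G029220 from 2.08 to 4.72 (WT stages) and from 2.27 to 4.83 (mutant stages). At a pseudocount of 0.1 the same differences were -3.39, 5.85, 3.46 and 4.16. Reversed were 12, none of them called. The interaction of HORVU3Hr1G091000 became 0.029 with RLE scaling and 0.011 with upper-quartile scaling, and ran from -0.60 to 0.15 without single libraries. That of HORVU1Hr1G029220 ran from -0.51 without library A of WT at W2.0 to 0.84, and was -0.22 and -0.05 without mutant W3.5 libraries B and C. The W2.0 genotype difference of HORVU3Hr1G091000 ran from -0.52 to 0.23, the latter without library A of WT at W2.0. The W3.5 difference of HORVU3Hr1G026650 ran from -0.42 to 0.17 without mutant library A, and was 0.15 without WT library C. The cause was not tested.

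Counts of genes called moved more. With limma-voom 23 genes were called between genotypes at W2.0, 31 at W3.5, 10 between stages in WT and 0 in the mutant, against 56, 60, 46 and 1 with limma. Leaving out single libraries gave 40 to 112 genes at W2.0 (112 without mutant library A), 38 to 68 at W3.5 (38 without WT library A), 7 to 81 between stages in WT, 0 to 5 in the mutant and 0 to 1 for the interaction. The WT stage count was 81 without WT W2.0 library A and 7 to 15 without any other WT library. The mutant stage count was 5 without WT W2.0 library A or mutant W2.0 library A, 3 without mutant W2.0 library B, 2 without mutant W3.5 library A, and 0 without mutant W2.0 library C, mutant W3.5 library B or C or WT W3.5 library A. The interaction count was 1 without mutant W3.5 library A or WT W3.5 library C.

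At a pseudocount of 0.1 the authors' means were 2-fold higher and lower in the mutant for 869 and 555 genes at W2.0 and for 772 and 386 at W3.5, higher at W3.5 for 568 in WT, and higher and lower for 307 and 901 in the mutant. At a 1.5-fold limit these counts were 1329 and 889, 898 and 774, 1196 and 1485 (WT stage, higher and lower), and 505 and 1351. Under both, HORVU3Hr1G091000 also passed the limit in both stage comparisons, as did HORVU1Hr1G063620 and HORVU1Hr1G029220 in the interaction. Levels under the 3-read limits could not be read. The spread between 3 pooled libraries, and the loss of library values for the 2 most abundant members, set the precision.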
